A study of Drosophila melanogaster with 8 samples.

Results

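Among the genes of the Drosophila melanogaster head that carry only an annotation number as their symbol (CG followed by digits), 82 were collected for being higher after 1 day of starvation. They were chosen by their CPM in these libraries. A gene entered the set when its mean in the 4 starvation libraries was at least 1.7 times its mean in the 4 food libraries, its starvation mean was at least 1 CPM, and its lowest starvation library lay above its highest food library. CPM is the count of a gene per 1000000 counts of all named genes in the same library. CG7059 and CG5966 also meet these values and were left out of the set by name. The deposited table held 6791 genes with a CG symbol among 17518 named genes, of which 3938 CG genes reached 1 CPM under starvation. The members were therefore 2.08% of the CG genes that could have entered. Because the same contrast chose them, the difference between food and starvation is given for the members as a description and not as a test.

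The RNA came from the heads of adult male flies of the control strain w1118, a line with a mutation in the eye pigment gene white that is shared by both groups, which were 1 to 3 d old. Groups of 30 flies were held for 1 day either on food or under starvation, which in the behavioural assays of the study meant sucrose and yeast in agar or agar alone, and each condition was sampled in 4 biological replicates. Paired-end reads of the poly(A)+ RNA were counted per gene. The RNA was sequenced to learn how starvation regulates the gene syp, in a study of genes that contribute to the hyperactivity of starved flies.

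A CG symbol is the number that a gene model received when the fly genome was annotated, and it stays in use until the gene is named after a mutant phenotype, a protein family or a human relative. Many CG genes encode enzymes, transporters or proteases that can be recognised from their sequence alone, while for others no function is known. In a starving insect the fat body, a tissue that also lines the head capsule, releases stored fat and glycogen, and cells turn to amino acids and lipids as fuel and recycle organelles by autophagy.

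The depth was even, with total counts of 47936038 to 53168449 in the food libraries and 48541958 to 50814153 in the starvation libraries. Starvation replicate 3 stood apart from the others. Mitochondrial genome transcripts made up 21.9% of this library, whereas they made up 15.4% to 16.6% of starvation replicates 1, 2 and 4 and 14.1% to 15.7% of the food libraries. Its deviation from the starvation mean decreased with exonic length across genes (Spearman's rho -0.57 across genes, which are not independent replicates), where the other starvation libraries had values of 0.31 to 0.38. These deviations share the same mean, so the values of the other libraries are not independent of that of replicate 3. For the members described with their values, the ratio without this library is therefore given where the library raised it most. The tissue label was compared with marker lists. The 12 photoreceptor markers summed to 24989 to 27205 CPM on food and 30716 to 37777 CPM under starvation. The 14 testis markers summed to 3.61 to 5.32 and 3.93 to 4.76 CPM. Gut and Malpighian tubule markers summed to 67.8 to 96.7 and 161 to 175 CPM on food, also far below the photoreceptor sums.

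Across all 12048 genes tested in edgeR (quasi-likelihood test, p-values adjusted by Benjamini-Hochberg), fewer genes were higher than lower under starvation. At an adjusted p under 0.05 and a change of at least 2-fold, 112 genes were higher and 647 were lower, which is 0.930% and 5.37% of the genes tested. Of the 82 members, 32 were among the 112 higher genes. Without the demand for a 2-fold change, 1210 genes (10.0%) were higher and 2012 (16.7%) were lower, and 81 members were among the higher genes. Every starvation library lay above every food library for 2043 genes (17.0%), and by the rule for all 82 members. These shares stand beside the members' counts only as background, since the rule had already used this contrast. The median log2 fold change was 0.89 over the members, -0.01 over all genes tested and 0.01 over the 4687 CG genes tested. CG14445 was the 1 member that did not pass at the adjusted p in this fit. With 1 library left out at a time, 68 to 78 members passed, and 76 did with the replicate number as a block.

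**Figure D1:**
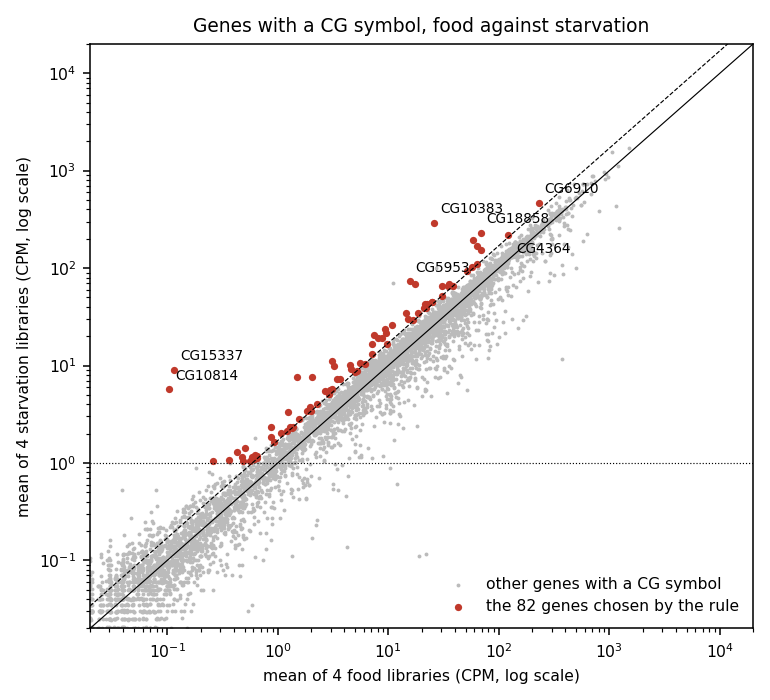
Mean CPM on food (horizontal axis, log scale) against mean CPM under starvation (vertical axis, log scale) for genes with a CG symbol, 1 point per gene, with the 82 members in colour and genes below the axis limits not drawn. The solid line marks equal means, the dashed line the ratio of 1.7 and the dotted line 1 CPM. The members lie along the line of 1.7 times, and CG15337, CG10814 and CG10383 stand far above it at 77.8, 54.9 and 11.3 times.

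Most members differed moderately between the conditions. The median ratio of the starvation mean to the food mean was 1.94, with 46 members under 2 times, 36 at 2 times or more, 13 at 3 times or more and 4 at 5 times or more. Turned around, the same rule (food at least 1.7 times starvation, a food mean of at least 1 CPM and no overlap) found 354 of 3967 CG genes, or 8.92%, and their median ratio of food to starvation was 2.40. Among genes with other symbols, 114 of 6435 (1.77%) met the values that define the members. Thus the CG genes that were higher were fewer than those that were lower, and their ratios were smaller at the median.

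In terms of counts, the members made up a larger share of the starvation libraries, as the rule required. Together they summed to 1382, 1381, 1417 and 1338 CPM in food replicates 1 to 4 and to 2706, 3517, 4026 and 2756 CPM in starvation replicates 1 to 4. The identical counts of CG17325 and CG42305 enter these sums under both symbols. The food libraries were close to each other, whereas starvation replicates 2 and 3 were well above replicates 1 and 4. The added counts came largely from a few genes, as the 5 members that gained most held 48.5% of the gain. At the other end, 27 members stayed under 5 CPM under starvation and 18 were under 1 CPM on food.

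The highest ratio belonged to CG15337 (X, 8160054 to 8161552), a gene with an exonic length of 1430 bases to which no role is given here. It was almost silent on food, with 0.167, 0.0965, 0.0752 and 0.125 CPM in replicates 1 to 4, and reached 6.53, 8.73, 14 and 6.83 CPM under starvation. Starvation replicate 3 was the highest and the other 3 were close together, while no food library held more than 8 counts. Its mean was 77.8 times higher under starvation (log2 fold change 6.20 ± 0.36, SE), and pooled counts of 23 and 1808 gave a ratio of 79.1 with an exact 95% interval of 52.5 to 125 that covers counting error only. Without starvation replicate 3 the ratio of means was 63.5.

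CG10814 (2R, 13375975 to 13377731), which resembles gamma-butyrobetaine dioxygenase, the last enzyme of carnitine synthesis in mammals, was the other gene with hardly any counts on food. Its levels were 0.125, 0.154, 0.0940 and 0.0417 CPM in food replicates 1 to 4 and 1.73, 5.42, 10.1 and 5.55 CPM in starvation replicates 1 to 4. The starvation libraries spread widely, with replicate 1 lowest and replicate 3 highest, yet even the lowest was 11.2 times the highest food library. The ratio of means was 54.9 (log2 fold change 5.68 ± 0.61, SE), the pooled counts of 21 and 1147 gave a ratio of 55.0 (exact 95% interval 35.8 to 89.1, counting error only), and 40.8 remained without starvation replicate 3.

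CG10383 (2L, 18690904 to 18695602) combined a high ratio with a high level. It had 25.7, 25.7, 27.5 and 24.5 CPM in food replicates 1 to 4 and 211, 342, 355 and 261 CPM in starvation replicates 1 to 4. The food libraries differed little, and every starvation library was at least 7.66 times the highest of them. The mean was 11.3 times higher under starvation (log2 fold change 3.43 ± 0.17, SE), 10.5 times without replicate 3, and its gain of 266 CPM was the highest of the 82 members.

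The next ratios belonged to genes of unrelated kinds. CG30098, a member of the trypsin-like serine protease family, had 1.48, 1.35, 2.03 and 1.06 CPM on food and 3.63, 10.5, 12.3 and 3.78 CPM under starvation in replicates 1 to 4. Its starvation libraries fell into a higher pair (replicates 2 and 3) and a lower pair (replicates 1 and 4). The ratio was 5.10, or 4.04 without starvation replicate 3. CG5953, whose protein carries a MADF domain found in DNA-binding factors, had 15.6, 15.5, 15.4 and 16.1 CPM on food and 60.7, 79.5, 80.1 and 71 CPM under starvation. Its libraries were tight in both conditions, with a ratio of 4.66 that hardly moved (4.50) without replicate 3. CG11159 was near the detection floor, at 0.333, 0.251, 0.132 and 0.313 CPM on food and 0.659, 0.943, 1.67 and 0.951 CPM under starvation. Only 51 counts over the 4 food libraries lie behind its ratio of 4.11 (3.31 without starvation replicate 3). Pooled counts gave 4.18 with an exact 95% interval of 3.07 to 5.80, which covers counting error only and not the spread between libraries.

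CG15068, which RefSeq names BomS6, encodes a short Bomanin, one of the small secreted peptides that are made under Toll signalling and protect flies against some infections. Its levels were 15.6, 16, 21.8 and 16.3 CPM in food replicates 1 to 4 and 49.9, 83.8, 107 and 34.9 CPM in starvation replicates 1 to 4. Food replicate 3 and starvation replicate 3 were the highest of their groups. The ratio was 3.96, or 3.23 without starvation replicate 3. With an exonic length of 198 bases it was the shortest member, and at 348 CPM per kb of exon under starvation it had the highest level per length.

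Further ratios above 3 came from 6 genes. CG11125 had 1.88, 2.20, 1.88 and 2.25 CPM on food and 6.86, 8.61, 7.87 and 6.93 CPM under starvation, a ratio of 3.69. CG7824 had 2.56, 2.80, 3.27 and 3.80 CPM on food and 7.60, 12.9, 14.6 and 9.47 CPM under starvation, a ratio of 3.59 (3.22 without starvation replicate 3). Both were low on food, and the starvation libraries were close together for CG11125 but spread for CG7824, with replicates 2 and 3 highest. CG13857 had 3.0, 3.34, 2.6 and 3.88 CPM on food and 8.24, 9.01, 14.9 and 7.45 CPM under starvation, a ratio of 3.09 that was 2.57 without replicate 3. CG2975, a galactosyltransferase relative, was scarce in both conditions, with 0.292, 0.695, 0.339 and 0.376 CPM on food, 1.03, 1.34, 1.22 and 1.60 CPM under starvation and a ratio of 3.06. The other two were CG18858 and CG31683, described with the lipid genes.

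**Figure D2:**
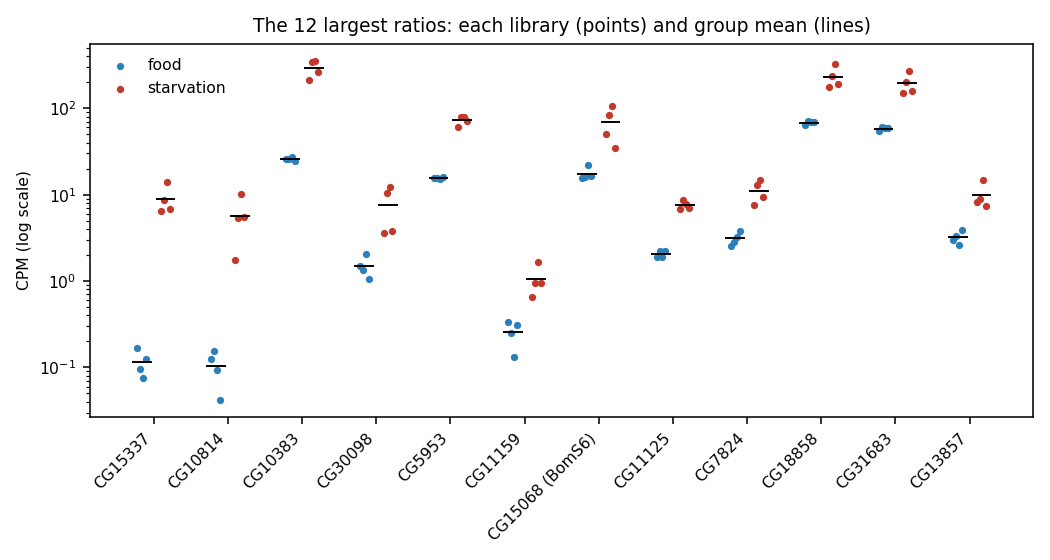
CPM in each library (log scale) for the 12 members with the highest ratio of means, with food and starvation libraries as separate points. For every gene the 4 starvation points lie above the 4 food points, as the rule required. The ratios run from CG15337 at 77.8 times to CG13857 at 3.09 times.

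A role is given here for 22 of the 82 members, and their median ratio was 2.17. The 60 members to which no role is given here had a median ratio of 1.89. No search of protein sequences stood behind the roles, so these 60 may include genes of a known family. Whether the medians differ was not tested. All 82 members matched a protein-coding gene in RefSeq (Release 6 plus ISO1 MT), and 10 of them now carry another symbol there. That share, 12.2%, stood beside 14.1% of the tested CG genes.

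Among the roles given, enzymes of amino acid and small molecule metabolism were the largest group, with 6 members. Bcat (CG1673), the branched-chain aminotransferase that takes the first step in the breakdown of leucine, isoleucine and valine, had 73, 60.4, 65.8 and 54.3 CPM on food and 123, 186, 236 and 136 CPM under starvation in replicates 1 to 4. Starvation replicate 3 lay above the food libraries by the widest margin, and the ratio was 2.69 (2.34 without it). Bhmt (CG10623), a homocysteine methyltransferase that regenerates methionine, had 22, 21.9, 22.4 and 22.6 CPM on food and 39.1, 41.4, 46 and 42.9 CPM under starvation, a ratio of 1.90.

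Miox (CG6910), the myo-inositol oxygenase that opens the breakdown of inositol, had more counts under starvation than any other member. It had 239, 226, 263 and 189 CPM in food replicates 1 to 4 and 368, 587, 631 and 273 CPM in starvation replicates 1 to 4. The separation was narrow, since starvation replicate 4 was only 1.04 times food replicate 3, whereas starvation replicates 2 and 3 were far above all food libraries. The ratio was 2.03, and 1.78 without starvation replicate 3. Per length of exon, Miox at 289 CPM per kb came next to BomS6.

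The other enzymes of this kind were CG10814, CG4842 and Ugt305A1. CG4842, a short-chain dehydrogenase, had 30.4, 33.1, 27.3 and 32.8 CPM on food and 54.4, 59.7, 88.6 and 60.8 CPM under starvation, a ratio of 2.13 (1.89 without starvation replicate 3). Ugt305A1 (CG18869), one of the UDP-glycosyltransferases that couple sugars to small molecules, had 0.375, 0.695, 0.527 and 0.292 CPM on food and 1.11, 1.0, 1.40 and 1.05 CPM under starvation, a ratio of 2.42 (2.23 without that library). All 6 genes of the group had their highest value in starvation replicate 3, as did 57 of the 82 members.

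Among the lipid genes, CG18858 and CG31683 gave nearly parallel values. Both belong to the family of lecithin:cholesterol acyltransferase and lysosomal phospholipase A2, enzymes that cleave phospholipids. CG18858 (2L, 20456847 to 20459075) had 63.7, 70.5, 70.3 and 68.8 CPM on food and 175, 235, 323 and 189.7 CPM under starvation in replicates 1 to 4, a ratio of 3.38 (2.93 without starvation replicate 3). CG31683 (2L, 20447734 to 20449964) had 53.9, 60.9, 58.8 and 58.9 CPM on food and 150.0, 199, 272 and 159 CPM under starvation, a ratio of 3.36 (2.92 without that library). In both genes the starvation libraries had the same order, with replicate 3 highest, then 2, 4 and 1. They lie 6883 bases apart on chromosome arm 2L and have exonic lengths of 2029 and 2031 bases. How far reads of one could be assigned to the other was not tested, because their sequences were not analysed here. The third lipid gene, puml (CG1882), which is related to the lipase regulators of the alpha/beta hydrolase fold, had 53.7, 52.3, 49.9 and 48.6 CPM on food and 82.4, 94.5, 105 and 87.8 CPM under starvation, a ratio of 1.81.

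The genes of organelle and protein turnover had high counts and close replicates. BNIP3 (CG5059), a protein of the outer mitochondrial membrane that recruits the autophagy machinery to mitochondria, had 72.2, 67.8, 70.5 and 67.8 CPM on food and 141, 173, 168 and 135 CPM under starvation, a ratio of 2.22 (2.15 without starvation replicate 3). Ube4B (CG9934), a ubiquitin ligase that lengthens ubiquitin chains, had 55.5, 57.2, 57.2 and 59 CPM on food and 92.9, 116, 102 and 104 CPM under starvation, a ratio of 1.81. For neither gene was starvation replicate 3 the highest library. CG4364, the fly relative of pescadillo, which in yeast and mammals is needed to assemble the large ribosomal subunit, had 118, 121, 122 and 127 CPM on food and 192, 216, 262 and 202 CPM under starvation, a ratio of 1.78 (1.66 without starvation replicate 3).

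Single genes or small groups filled the remaining roles. Besides CG5953, genes with a DNA-binding domain included CG4404, also of the MADF type, at 38.5 ± 0.696 CPM on food and 66.2 ± 6.25 CPM under starvation (SD, n = 4). CG14655, a C2H2 zinc finger gene, was among the most even members, with 5.61, 5.44, 5.62 and 5.55 CPM on food and 9.95, 11, 11.1 and 10.8 CPM under starvation. CG6689, another zinc finger gene, had 16.9 ± 1.41 CPM on food and 29.4 ± 4.0 CPM under starvation (SD, n = 4). These genes thus lay at ratios from 1.72 for CG4404 to 4.66 for CG5953, and without starvation replicate 3 the ratios of CG4404 and CG6689 were 1.66 and 1.63.

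The other members listed here as proteases, beside CG30098, had few counts. CG10472 had 1.06 ± 0.126 CPM on food and 2.01 ± 0.570 CPM under starvation, and CG16749 had 1.96 ± 0.324 and 3.71 ± 1.0 CPM (SD, n = 4). Without starvation replicate 3 their ratios changed from 1.89 to 1.63 and from 1.89 to 1.69. CG13796, a transporter of the SLC6 family, which carries neurotransmitters and amino acids with sodium, had 8.94, 9.63, 8.58 and 11.1 CPM on food and 20.02, 23.3, 22.5 and 20.4 CPM under starvation, a ratio of 2.25. Its 4 starvation libraries were close to each other.

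Of the members with high counts and no stated role, CG12576 had 64, 61.4, 64.2 and 63.8 CPM on food and 102, 120.0, 118 and 103 CPM under starvation, a ratio of 1.75. CG8321 had 34.3, 35.7, 35.2 and 35.1 CPM on food and 59.7, 71.4, 82.6 and 62.7 CPM under starvation, a ratio of 1.97 (1.84 without starvation replicate 3). In both genes the groups were well separated, with the lowest starvation library 1.59 and 1.67 times the highest food library. Of the 82 members, 9 reached 100 CPM or more under starvation, 17 reached 50 CPM or more and 38 lay from 5 to under 50 CPM.

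**Figure D3:**
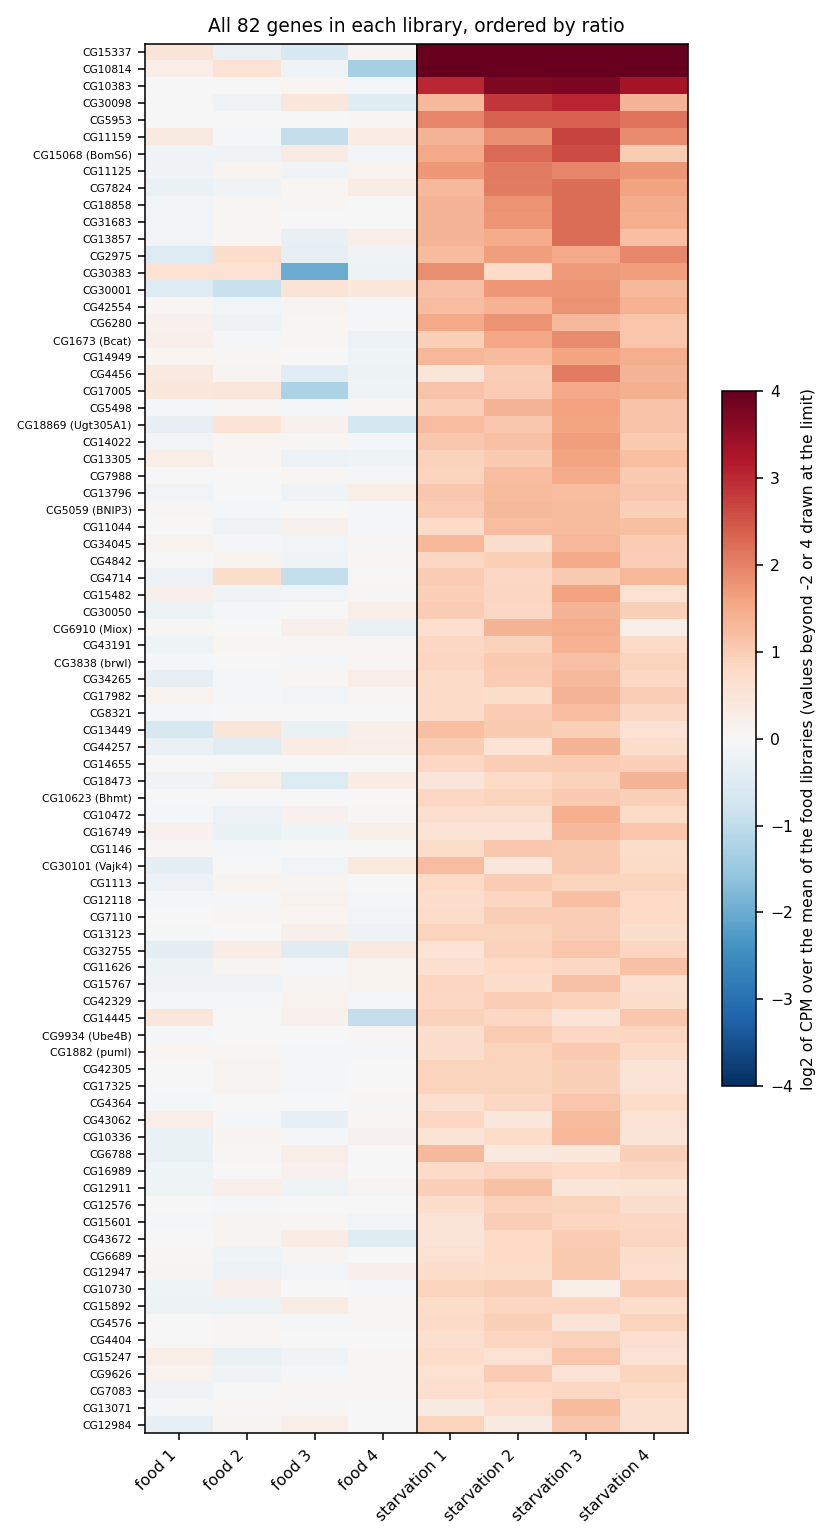
Log2 of the CPM in each library over the food mean of the same gene, for the 82 members (rows, ordered by the ratio of means) in the 8 libraries (columns). The starvation columns are above the food columns throughout, as the rule required. The column of starvation replicate 3 has the strongest colour, with a median of 1.26 where replicates 1, 2 and 4 have 0.88 to 0.98.

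The size of the difference was not the same in the 4 starvation libraries. The median log2 ratio of a member to its own food mean was 0.88, 0.98, 1.26 and 0.95 in starvation replicates 1 to 4. Starvation replicate 3 held the highest value for 57 members (69.5%), against 39.9% of the tested CG genes and 34.5% of the lowered CG genes. Starvation replicate 1 held the lowest value for 44 members (53.7%), against 21.3% of the tested CG genes. The lowered CG genes had another order, since their lowest value, and thus their widest distance from food, was in starvation replicate 4 for 72.9% of them. So the library in which most members were highest was not the library in which most lowered genes were lowest. The members and the lowered CG genes were chosen on these same starvation values, so their shares are not independent of the rule.

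**Figure D4:**
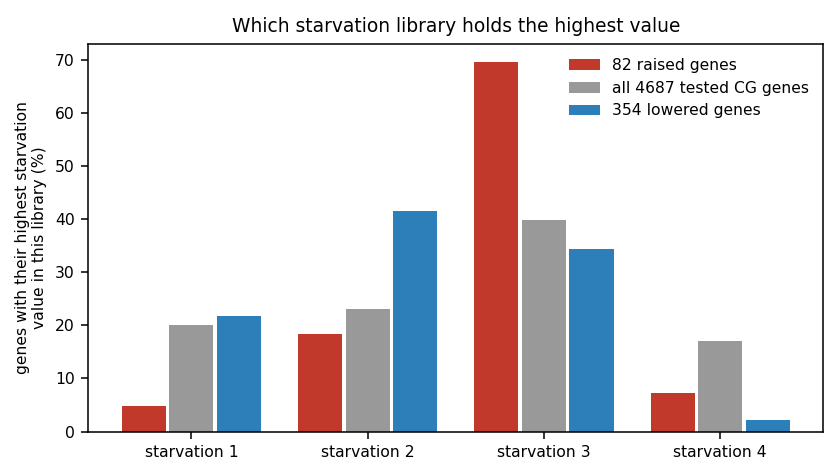
Percentage of genes (vertical axis, from 0) that have their highest value in each of starvation replicates 1 to 4, for the members, the tested CG genes and the CG genes lowered by the mirrored rule. Replicate 3 is highest for 69.5% of the members, against 39.9% of tested CG genes and 34.5% of lowered CG genes. The members and the lowered CG genes were chosen on these same starvation values.

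Starvation replicate 3 also had the high mitochondrial share and the length pattern across genes given above, whose part in the members' values was not tested. Starvation replicates 1, 2, 3 and 4 were highest for 4, 15, 57 and 6 members. The median exonic lengths of these groups were 1348, 2433, 1364 and 1850 bases in that order. Among the tested CG genes, grouped in the same way, the medians were 2168.5, 2123, 1258 and 2462 bases. Without replicate 3, 68 of the 82 members still had a ratio of at least 1.7 and the median ratio was 1.88. In 18 members replicate 3 was at least 1.5 times the mean of the other starvation libraries, and in 14 it was at or below that mean. Taken library by library, 54, 68, 76 and 58 members were at least 1.7 times their food mean in starvation replicates 1 to 4, and 38 were so in every one of them.

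The members also differed in how tightly their replicates agreed. The coefficient of variation (CV, the SD as a percentage of the mean) had a median of 11% between food libraries and 17.3% between starvation libraries, beside 8.58% and 14.3% for the tested CG genes. It was larger under starvation in 64 members (78.0%), against 72.9% of tested CG genes. The members were also lower in level, with a median mean of 4.56 CPM on food and 9.51 CPM under starvation. For the tested CG genes these medians were 11.1 and 11.1 CPM. The part of this level, and of the rule, in the CV was not tested. The widest spread under starvation was in CG10814 (60.1%), CG30098 (59.6%) and CG4456 (47.5%). The narrowest was in CG16989 (2.43%), CG7083 (4.64%) and CG14655 (5.0%). For example, CG16989 had 19.4, 22.3, 24.7 and 21.8 CPM on food and 37.9, 40.1, 38.7 and 38.8 CPM under starvation, a ratio of 1.76 with hardly any spread under starvation. In 41 members the lowest starvation library was at least 1.5 times the highest food library, and in 7 it was less than 1.1 times.

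The limits of the rule cut through a continuous range of values. Just inside the ratio limit lay CG12984 (1.7), CG13071 (1.7), CG7083 (1.71), CG9626 (1.71) and CG15247 (1.71). Just outside it lay CG42566 (1.69), CG8204 (1.69), CG17350 (1.69), CG6931 (1.68) and CG34164 (1.68). At the limit on level, CG11159 (1.06 CPM under starvation), CG34045 (1.06), CG18473 (1.06), CG30383 (1.07) and CG43062 (1.09) were just inside. CG4830 (0.995 CPM), CG12744 (0.902), CG30334 (0.891), CG13749 (0.799) and CG5399 (0.777) were just outside. Only 3 CG genes met both limits but had overlapping groups, namely CG7763, CG9492 and CG13622. CG7763, for instance, had 0.438, 1.02, 0.527 and 0.501 CPM on food and 1.48, 2.53, 2.48 and 0.772 CPM under starvation, where replicate 4 was below food replicate 2.

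The genes left out by name also had high ratios. CG7059, a relative of phosphoglycerate mutase, had 11.4, 10.04, 11.4 and 11.6 CPM on food and 53, 70.7, 101 and 58.6 CPM under starvation, a ratio of 6.36. CG5966, a lipase relative, had 31.2, 25.4, 26.5 and 24.7 CPM on food and 101, 122, 108 and 72.6 CPM under starvation, a ratio of 3.75. Among the tested CG genes, 47 were called higher by at least 2-fold, of which 15 were not members. Of these 15, 12 were under 1 CPM under starvation, 2 were the genes left out by name and 1 was CG7763.

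The members were spread over the genome. Chromosome arm 2L held 20 members (24.4%, against 17.6% of the tested CG genes), 2R held 17 (20.7% against 20.1%), 3L held 16 (19.5% against 19.3%), X held 15 (18.3% against 17.2%) and 3R held 14 (17.1% against 25.5%). None lay on chromosome 4. The median exonic length was 1610 bases, close to the 1695 bases of the tested CG genes, and ranged from 198 to 5570 bases. A single RefSeq mRNA was annotated for 54.9% of the members and 48.6% of the tested CG genes.

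Only 6 pairs of members lay within 20 kb of each other. CG17325 and CG42305 have the same coordinates (2L, 18812648 to 18813941) and identical counts in all libraries. They had 24.4, 26.7, 23.6 and 24.8 CPM on food and 45.9, 46.5, 48.7 and 36.7 CPM under starvation. The 82 members thus stand for 81 distinct sets of counts. CG8321 and CG43191 overlap by 340 bases, and their ratios were 1.97 and 2.0. CG10336 and CG10383 share 3 bases at their ends, yet CG10336 had 1.90, 2.47, 2.20 and 2.55 CPM on food and 3.36, 3.77, 5.71 and 3.27 CPM under starvation, a ratio of 1.77 (1.52 without starvation replicate 3), against 11.3 for CG10383. The remaining pairs were CG18858 with CG31683, puml (CG1882) with CG30383 at 8457 bases, and CG15337 with CG17982 at 16219 bases. Their ratios were unlike, with 1.81 and 2.96 for the former of these last pairs and 77.8 and 1.97 for the latter.

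The genes around the members were examined next, as the nearest gene on each side at any distance and every overlapping gene. This gave 185 distinct genes other than members and CG7059. Of these, 145 were tested, and the edgeR fit over all genes placed 31 (21.4%) above and 22 (15.2%) below their food level with an adjusted p under 0.05, beside 10.0% and 16.7% of all genes tested. These neighbours are not all independent of the rule. Those that overlap a member may share its reads, since strand use in the counting is not given in the sources used here, and neighbours with a CG symbol that met the rule had become members themselves. Of the 120 tested neighbours that overlap no member, 22 (18.3%) were higher and 21 (17.5%) lower, 5 and 9 of them by at least 2-fold, and their median log2 fold change was 0.05. Of these, 72 carry another kind of symbol, so the rule could not have taken them. Among the 72, 18 (25%) were higher and 10 (13.9%) lower, 4 and 3 of them by at least 2-fold, with the same median of 0.05. Whether the higher shares differ from those of all genes was not tested. Overlapping genes are therefore given below with values and no test.

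**Figure D5:**
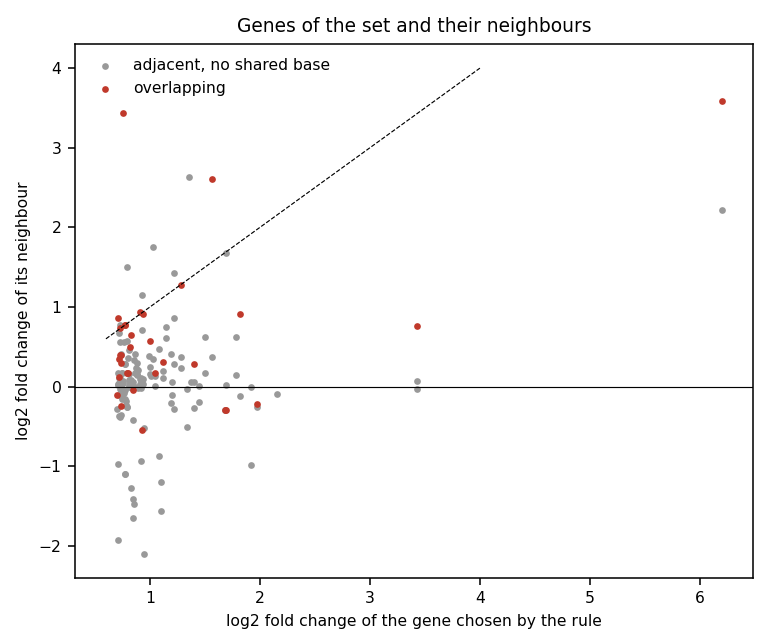
Log2 fold change (starvation over food) of each member on the horizontal axis against that of its tested neighbour on the vertical axis, with overlapping and separate neighbours marked apart and a dashed line where both are equal. Some members are neighbours of each other. The neighbours that overlap no member scatter around a median of 0.05 while all members are above 0, and GIIIspla2 beside CG15337 is among the few pairs that are high on both axes.

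Next to CG15337, the gene with the highest ratio, a neighbouring gene rose too. GIIIspla2, which encodes a secreted group III phospholipase A2 and starts 706 bases away, had 15.8, 16.3, 13.8 and 16.4 CPM in food replicates 1 to 4 and 69.6, 87.2, 99.9 and 47.8 CPM in starvation replicates 1 to 4. No starvation library overlapped a food library, and the log2 fold change was 2.22 ± 0.19 (SE, edgeR adjusted p = 1.6e-05). CG10761, which overlaps CG15337 by 13 bases, was far lower, at 0.0391 ± 0.0316 CPM on food and 0.529 ± 0.173 CPM under starvation (SD, n = 4).

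CG4456 could not be separated from Hsp22, a small heat shock protein of mitochondria, as the genes overlap by 2034 bases. CG4456 had 12.2, 10.1, 6.92 and 8.18 CPM on food and 13, 18.4, 39.1 and 24.2 CPM under starvation in replicates 1 to 4. Hsp22 had 12.2, 10.1, 6.92 and 8.11 CPM on food and 13, 18.4, 39 and 24.1 CPM under starvation. The values are almost the same library by library, so the ratio of 2.53 cannot be assigned to either gene. Starvation replicate 3 of CG4456 was 2.11 times the mean of the other starvation libraries, and without it the ratio was 1.98.

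Other members lay inside or across genes that were higher as well. CG10730 lies within bwa, an alkaline ceramidase gene, which had a log2 fold change of 0.74 ± 0.07 (SE). CG11125 overlaps fa2h, a fatty acid hydroxylase gene (0.91 ± 0.20, SE), and CG7083 overlaps the primase subunit gene DNApol-alpha50 (0.86 ± 0.19, SE). In contrast, the host or partner genes of CG11159 (Lrt), CG1146 (Svil), CG4576 (rec) and CG34045 (Rgk1) had log2 fold changes from -0.22 to 0.17. CG13857 overlaps CG7059 by 161 bases. In all, 36 members overlap another gene (43.9%, against 53.5% of the tested CG genes), and the deposited table marked 4 of them as overlapping.

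Some members stood beside genes that fell. CG13796 lies between CG13795, another SLC6 transporter gene, which fell with a log2 fold change of -1.20 ± 0.13 (SE, edgeR adjusted p = 8.0e-05), and CG31904, which fell as well (-1.56 ± 0.21, SE, edgeR adjusted p = 3.2e-04). CG13795 had 48.4, 48.7, 53.2 and 39.3 CPM on food and 19.8, 26.1, 23.2 and 17.3 CPM under starvation, the opposite direction from CG13796. Est-6, the carboxylesterase gene 958 bases from Miox, fell with a log2 fold change of -2.10 ± 0.23 (SE, edgeR adjusted p = 7.7e-05). The gene su(r), which encodes a pyrimidine-degrading dehydrogenase, fell beside CG12118 (-1.28 ± 0.13, SE, edgeR adjusted p = 4.7e-05).

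Around the lipid pair and the immune peptide the overlapping or closest genes showed no such ratio. CG31687 and CG31688, which overlap CG18858 and CG31683, had log2 fold changes of -0.30 ± 0.12 and -0.30 ± 0.13 (SE). CG15065, 111 bases from BomS6, had 5.11, 8.15, 7.79 and 6.97 CPM on food and 4.02, 6.94, 13.9 and 4.36 CPM under starvation, with overlapping groups. By contrast Cpr72Ec, a cuticle protein gene 1049 bases from CG4842, rose from 92 ± 6.21 to 326 ± 68.7 CPM (SD, n = 4; edgeR adjusted p = 1.3e-05).

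Markers of several cell types moved with the conditions while the members were higher. In bulk heads, fewer cells of a type and less RNA per cell cannot be told apart. Of 10 tested fat body markers, 8 fell by at least 2-fold, and the list summed to 10404 to 15175 CPM in the food libraries and 2787 to 3479 CPM in the starvation libraries. Hemocyte markers (6 of 8 lower by at least 2-fold) summed to 365 to 529 CPM on food and 238 to 340 CPM under starvation, and oenocyte markers (3 of 5) to 93.1 to 117 and 38.2 to 55.3 CPM. All 9 glial markers fell at the adjusted p, none by 2-fold, with sums of 3055 to 3435 and 1904 to 2351 CPM. For photoreceptors 6 of 12 markers rose at the adjusted p, with sums of 24989 to 27205 CPM on food and 30716 to 37777 CPM under starvation. Gut markers (1 of 8 tested lower by at least 2-fold) summed to 67.8 to 96.7 CPM on food and 11.7 to 63.9 CPM under starvation. Malpighian tubule markers (2 of 3 tested lower at the adjusted p) summed to 161 to 175 and 135 to 154 CPM. None of the 9 neuronal or 9 muscle markers passed the test in either direction. No marker found in the table was at 0 in every library. No marker is a member, and the part of these shifts in the members' values was not tested.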

How the data were processed

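Heads of male w1118 flies were sampled in 4 food and 4 starvation replicates, grouped by the sample labels. The authors sequenced each library on a pair of flow cells, aligned the reads with STAR 2.6.1b to a release 6 fly genome, merged the runs and counted reads per gene with ASpli; the deposited values are raw counts without normalization. Strand use in the counting is not given in the sources used here. CPM was computed from the deposited counts over the sum of named genes. 1 row without a symbol, whose cells stood 1 column to the left, was left out (0.00418% to 0.00541% of the counts).

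Food and starvation were compared in edgeR 4.0.16 (R 4.3.3) with TMM normalization, filterByExpr, the quasi-likelihood test and Benjamini-Hochberg adjustment over 12048 genes. On simulated data, at an adjusted p under 0.05 and at least 2-fold, edgeR called 199 of 200 genes changed 3-fold among 11933 genes and 0 unchanged genes. The changed genes were drawn from those above 1 CPM, and the patterns of starvation replicate 3 were not simulated. Calls without the 2-fold demand were not examined in this way. DESeq2 1.42.0, limma-voom (limma 3.58.1), other normalizations, no filter, a replicate block, other limits of the rule and leaving out each library were alternatives. The counting intervals are exact (Clopper-Pearson). The SE of a log2 fold change is its absolute value divided by the square root of the quasi-likelihood F statistic. It therefore restates the test, which for the members is on the contrast that chose them.

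The members, roles and marker lists were chosen with earlier results of these data known. Named members were the 12 with the highest ratio, the 12 with the highest starvation mean, those next to each limit, those within 20 kb of another member and the 3 with the widest and the narrowest spread. Members with a role that could be stated, neighbours, and examples such as CG7763 were named after their values were seen. Gene names and coordinates came from the deposited table and RefSeq. Promoter and protein sequences were not analysed here.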

Additional observations from a re-analysis of the deposited data

Results flagged for a closer look

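The 4 values of each member in each condition were examined for a library whose gap to the nearest of the others is large against the whole range (Dixon's test at the 95% level). This gave 164 sets, of which 8 held such a library, where chance alone gives about 1 in 20 or 8.2.

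On food, replicate 3 was far above the others for BomS6 (CG15068), at 21.8 CPM against 15.6 to 16.3, and for CG42329, at 23.4 CPM against 20.4 to 20.8. CG12576 was low in food replicate 2, at 61.4 CPM against 63.8 to 64.2.

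Under starvation, replicate 3 was far above the others for CG14022 (25.7 CPM against 16.6 to 17.9), CG10472 (2.85 CPM against 1.67 to 1.84) and CG12947 (6.10 CPM against 4.63 to 4.86). The same library was far below the others for CG10730, at 5.90 CPM against 9.15 to 9.76. CG11044 was low in starvation replicate 1, at 14.9 CPM against 20.2 to 21.0.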

How the results depend on the processing

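The number of members followed the limits of the rule, with 179 at a ratio of 1.5, 36 at a ratio of 2 and 55 at 5 CPM. With TMM-normalized library sizes 61 genes met it, all of them members, and with totals without mitochondrial transcripts 103 did, all 82 members included. Leaving out each library gave 69 to 102 genes, the lowest without starvation replicate 3, where 15 members were lost and 2 genes gained. By the same removals the members called at least 2-fold higher numbered 26 to 39, all genes called higher 100 to 131, called lower 559 to 710, and the members' median log2 fold change was 0.83 to 1.0. The mirrored CG genes numbered 321 to 376.

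DESeq2 called 128 genes higher, limma-voom 108, RLE normalization 121, no filter 120 and upper-quartile normalization 163, which moved the median of all genes to 0.10 and called 43 members higher. Of 1148 log2 fold changes of single members under 14 alternatives, 3 moved beyond the spread (CG10623, CG14655 and CG7083, upper-quartile), 0 reversed, and the lowest was 0.48. With the replicate number as a block, 103 genes were called higher, 657 lower and 31 members, with a median of 0.88. The deviations of same-numbered libraries correlated at 0.02, 0.06, 0.12 and 0.17. Starvation replicates 2, 3 and 4 correlated best with the food library of their own number and replicate 1 with food replicate 4, a hint from the data only, since no label says that a number is shared. Searches of promoters and proteins were not run.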
